A study of Arabidopsis thaliana with 72 samples.

Results

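Roots were compared with shoots of Arabidopsis thaliana seedlings 1 h after 0.1% ethanol (EtOH), the control treatment of a study of t-chalcone. The comparison takes in every gene of 6 of the 72 samples, namely the 3 labelled roots and the 3 labelled shoots at 1 h of EtOH. The seedlings were 14 days old, grew on agar plates with 1% sucrose at 22 °C with 16 h light and 8 h dark a day, and received 8 mL of liquid per plate at 7 h after lights on. None of these 6 samples received t-chalcone, and all 6 received EtOH, so the values describe ethanol-treated and not untreated seedlings. The labels name no ecotype, mutation or transgene. The study sampled both organs, with EtOH or 21 µM t-chalcone, at the start and then 1, 3, 6, 12 and 24 h later. RNA sequencing gave one table of 22884 genes, whose values are read counts that the authors divided by a size factor per library, called normalised read counts here. The labels do not say that replicates came from separate plates or plants, so each p-value is set against the spread of these libraries, and that spread may be technical. A root or a shoot is also a mixture of cell types, and more cells of a type cannot be told apart from more RNA per cell.

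The division of labour between the organs is textbook biology. Shoot cells capture light and fix carbon in chloroplasts, exchange gases through stomata and seal themselves with a cuticle of wax and cutin. Root cells take up water and ions, through root hairs among others, and filter them at the endodermis, an inner sheath sealed by the lignin of the Casparian strip and by suberin.

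The 6 libraries were deep. Whole numbers of reads recovered from the deposited values summed to 15.9 to 19.1 M (mega) in roots and to 14.4 to 23.6 M in shoots. Pearson's r between libraries, across genes on the log2 scale, was 0.982 to 0.994 within an organ and 0.765 to 0.776 between organs. The lowest value of each column, 0.341 to 0.401 in roots and 0.344 to 0.560 in shoots, stands for a gene with next to no reads. A gene with that value in all 3 libraries of an organ is given here as listed at the lowest value, and its fold is a lower bound set against 3 counts per library.

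The labels held for the defining markers of both organs. The 6 shoot markers, LHCB1.1, LHCB3, RBCS1A, RCA, PSAD1 and GAPB, and the 7 root markers, PRP3, EXPA7, COBL9, CASP1, NRT2.1, PIP2;4 and IRT1, were each higher in their own organ, with no overlap between libraries. In roots the antenna gene LHCB1.1 (AT1G29920) had 7.07, 9.90 and 7.23 normalised reads against 10744, 11715 and 12253 in shoots. CASP1 (AT2G36100), a scaffold protein of the Casparian strip, had 1127, 1070 and 911 in roots against 7.84, 5.31 and 9.62 in shoots. One shoot library stood apart in a small set of genes. Replicate 3 of the shoots held 13 genes with at least 50 normalised reads and at least 10 times the other shoot libraries, and no other library held such a gene. Its seed-storage cruciferin CRU3 read 3489, against 0.560 and 0.531 in the other shoots and the lowest value in all roots. The cruciferin CRA1 read 1947 there, the albumin SESA4 1359 and the oleosins OLEO1 and OLEO2 341 and 155, all of them proteins that fill the maturing seed. In the 60 other libraries of the series over 0.5 M reads these 5 genes did not pass 27.8. They were not among the genes tested, and the organ counts without that library are given beside the first count.

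**Figure D1:**
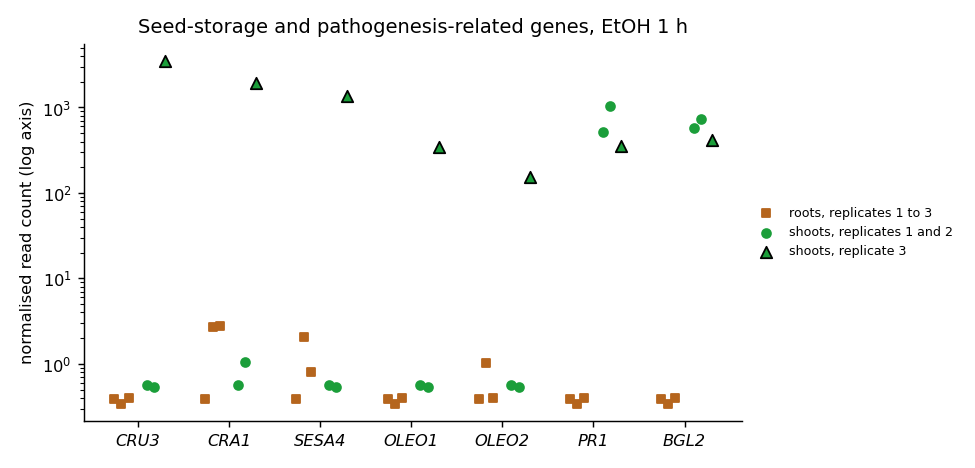
Normalised read counts (log axis) of 5 seed-storage and oil-body genes and of PR1 and BGL2 in each of the 6 libraries; squares are roots, circles and triangles are shoots. The seed genes are high in shoot replicate 3 alone (triangles, CRU3 3489), while PR1 and BGL2 are high in all 3 shoot libraries.

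A gene was tested if it reached 10 normalised reads in at least 3 of the 6 libraries, which 19164 genes did and 3720 did not. Organs were compared by limma on log2(value + 1), with Benjamini-Hochberg adjustment across the whole tested set. At an adjusted p under 0.05, 13835 genes differed, 72.2% of those tested: 6524 were higher in roots (34.0%) and 7311 higher in shoots (38.1%). A difference of at least 2-fold was shown by 7717 genes (40.3%), of which 3923 were higher in roots (20.5%) and 3794 in shoots (19.8%). With shoot replicate 3 left out, 13443 genes differed. Values of the organs did not overlap in 14755 genes (77.0%). Since most genes differ, a single call says little about a gene, and sizes carry the description below. Differences of log2 3 or more, on the log2(value + 1) scale, were found in 1626 genes toward roots and 1259 toward shoots, and of 5 or more in 411 and 457. Each difference below is roots minus shoots on that scale with its standard error, and each adjusted p is limma's.

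**Figure D2:**
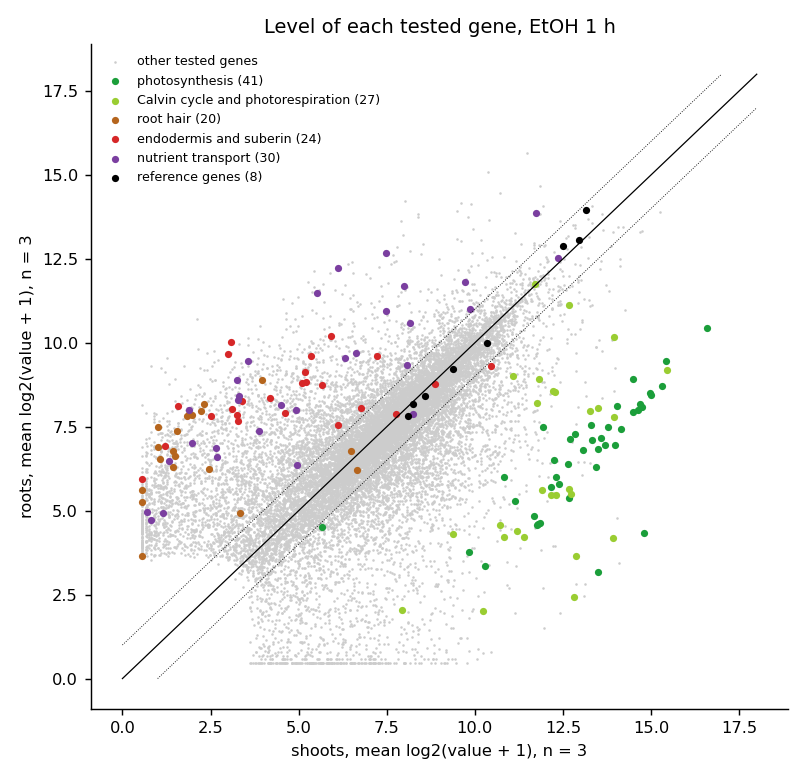
Mean log2(normalised read count + 1) of the 19164 tested genes in shoots (x axis) and roots (y axis), 3 libraries each, with 6 gene lists in colour; the solid line marks equal values and the dotted lines a difference of log2 1. Photosynthesis genes lie below the line, most root hair, endodermis and nutrient transport genes lie above it, and reference genes lie along it.

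The largest differences toward shoots included myrosinases, carbonic anhydrases and genes of photosynthesis. Taking named genes whose higher organ averaged 50 or more and whose organs did not overlap, the 15 largest were TGG1, TGG2, LHCB1.4, RBCS2B, LHCB1.1, CA2, CA1, RBCS3B, XTH6, CAB3, RLM3, FBA5, GOX1, OEP6 and GER3. TGG1 (AT5G26000), a myrosinase that splits glucosinolates into toxic products, read 7.46, 10.2 and 12.4 in roots and 18977, 13947 and 19669 in shoots. The organs lay more than 3 orders of magnitude apart, a difference of -10.64 ± 0.19 (adjusted p = 1.6e-08). CA1 and CA2, the carbonic anhydrases that interconvert carbon dioxide and bicarbonate, differed by -10.05 ± 0.21 and -10.31 ± 0.18. XTH6 (AT5G65730), an enzyme that cuts and rejoins wall xyloglucan, read at most 1.57 in roots and 1345, 933 and 1363 in shoots. GER3 (AT5G20630), a germin-like protein, was at the lowest value in all 3 root libraries and read 714, 474 and 1046 in shoots, at least 656-fold higher.

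The 15 largest differences toward roots were AIR1, TGG5, TGG4, CYP87A2, TIP2;3, AGP30, CASP1, scpl2, CYP702A5, GSTU22, UNE11, CRK25, CYP71A16, PER64 and HRGP1. AIR1 (AT4G12550), first found as an auxin-induced transcript of root cultures, read 1996, 1834 and 1243 in roots and 7.28, 0.531 and 5.50 in shoots, a difference of 8.57 ± 0.58 (adjusted p = 3.7e-06). TGG5 (AT1G51470), a root myrosinase, read 1003, 731 and 357 in roots and 1.12, 0.531 and 0.687 in shoots, 8.51 ± 0.36 (adjusted p = 3.0e-07). Root replicate 3 held the lowest TGG5, TGG4 and AIR1 of the roots, yet each stayed over 100 times above every shoot library. HRGP1 (AT3G54590), a hydroxyproline-rich wall protein, was the steadiest of the 15 within roots, at 837, 833 and 822.

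**Figure D3:**
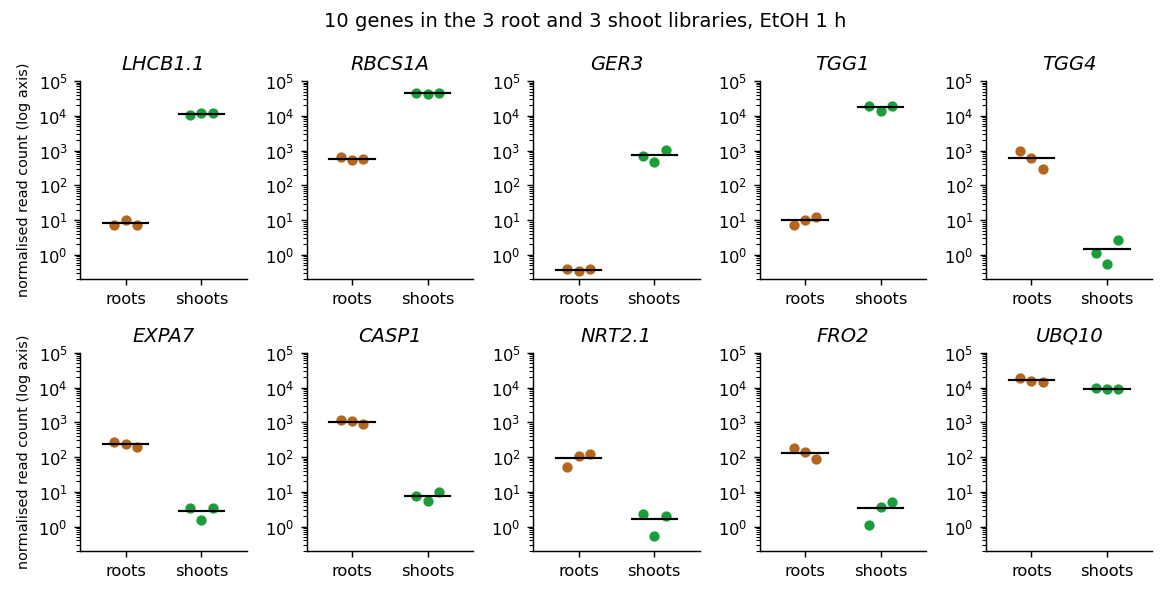
Normalised read counts (log axis, the same in every panel) of 10 genes in the 3 root (brown) and 3 shoot (green) libraries, with the mean as a bar. The organs are separated in all 10, widely in LHCB1.1, RBCS1A, GER3 and TGG1 toward shoots and in TGG4, EXPA7, CASP1, NRT2.1 and FRO2 toward roots, and narrowly in UBQ10.

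Photosynthesis genes moved as a block. All 41 listed genes for the antenna, both photosystems, plastocyanin, the cytochrome complex and the chloroplast ATP synthase were called higher in shoots. Their median difference was -6.46 against -0.06 over all genes tested. Summed, they took 7.56% to 8.24% of shoot totals and 0.101% to 0.132% of root totals. The table held 0 genes of the chloroplast genome, so subunits encoded there are in neither the 41 nor these totals. Root levels were low but not nil: PSBO1 (AT5G66570), of the oxygen-evolving complex, read 449, 307 and 348 in roots against 32152, 29506 and 34551 in shoots. The antenna gene LHCB4.3 was the smallest of the 41, at 25.1, 22.9 and 18.1 in roots and 51.0, 48.4 and 48.8 in shoots, -1.14 ± 0.17 (adjusted p = 0.00036). Its paralogs LHCB4.1 and LHCB4.2 differed by -5.58 ± 0.11 and -6.66 ± 0.12. Paralogs of the major antenna also spread: LHCB1.3 differed by -6.13 ± 0.18 and the neighbouring LHCB1.1 by -10.33 ± 0.13. Near-identical copies such as the LHCB1 and RBCS genes may share reads, so values of single copies are uncertain to that extent.

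Carbon fixation and photorespiration followed, with 26 of 27 genes higher in shoots and a median of -6.17. RBCS1A (AT1G67090), a small subunit of Rubisco, read 666, 534 and 560 in roots and 44492, 43596 and 45406 in shoots, while RBCS2B read 3.54, 6.49 and 3.61 in roots and 7577, 5962 and 8074 in shoots. Their differences were -6.25 ± 0.12 and -10.37 ± 0.21. TKL1 (AT3G60750), a transketolase of the Calvin cycle, had the smallest difference of those called, -1.56 ± 0.12, at 1954, 2210 and 2551 in roots and 7029, 6167 and 6488 in shoots. AT1G80380 of the same list overlapped between organs, at 0.04 ± 0.14 (adjusted p = 0.82). Its roots read 3985, 3707 and 2811 and its shoots 3605, 3173 and 3343.

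All 15 chlorophyll synthesis genes were higher in shoots, with a median of -4.13. PORB (AT4G27440), a light-dependent reductase of protochlorophyllide, differed by -5.52 ± 0.20, and GUN5, a subunit of magnesium chelatase, by -4.79 ± 0.13. At the first committed step, HEMA1 differed by -2.02 ± 0.11 and its paralog HEMA2 by -0.43 ± 0.11 (adjusted p = 0.0070). HEMA2 read 313, 299 and 277 in roots and 385, 459 and 357 in shoots, adjacent ranges that did not overlap. In a fit that shares its spread over all 66 libraries of the series, called the all-library fit below, HEMA2 did not pass (adjusted p = 0.20).

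Genes of the stomatal lineage were higher in shoots. Of 15 stomatal genes, 12 were tested and all 12 were higher in shoots, with a median of -4.56. FAMA (AT3G24140), the transcription factor that sets guard cell identity, was at the lowest value in every root library and read 204, 129 and 171 in shoots, at least 148-fold higher. KAT1, a potassium channel of guard cells, read 110, 107 and 108 in shoots against the lowest value in roots, at least 95.5-fold. EPFL9, a peptide that promotes stomata, was at least 86.1-fold and SPCH, which starts the lineage, at least 28.8-fold higher. SCRM, their bHLH partner and also a cold regulator, was read in roots too, at 61.3, 71.4 and 60.6 there against 407, 397 and 405 in shoots.

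Leaf polarity and meristem genes split, 10 of 14 tested toward shoots (71.4%) and 4 toward roots (28.6%), against 38.1% and 34.0% of all tested genes. The YABBY genes of the lower leaf face were at the lowest value in all root libraries. YAB3 (AT4G00180) read 540, 462 and 565 in shoots, FIL 268, 237 and 253, and YAB5 240, 165 and 231, at least 460-fold, 222-fold and 187-fold higher. The meristem gene STM read 20.1, 45.7 and 31.6 in shoots and was at the lowest value in roots, at least 28.6-fold. Of the class III HD-ZIP factors, which act in the upper leaf face and in vascular tissue of both organs, REV was higher in roots (1.28 ± 0.07) and PHV higher in shoots (-1.11 ± 0.08). PHB, KNAT1 and KAN2 were higher in roots by less than 2-fold, 0.65 ± 0.14, 0.85 ± 0.21 and 0.58 ± 0.15, and did not pass in the all-library fit (adjusted p = 0.065 to 0.23).

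Of 12 cuticle genes tested, 9 were higher in shoots (75%) and 3 in roots (25%), against 38.1% and 34.0% of all tested genes. KCS6 (AT1G68530), which elongates fatty acids for wax, read 13.4, 18.1 and 17.3 in roots and 1984, 1334 and 1464 in shoots, -6.52 ± 0.17 (adjusted p = 4.1e-08). CER1, of alkane synthesis, differed by -3.74 ± 0.26 and the wax and cutin exporter ABCG11 by -3.75 ± 0.14. CER4 (AT4G33790), an alcohol-forming reductase, went the other way. It read 40.5, 38.6 and 26.5 in roots and was at the lowest value in all shoot libraries, at least 24.5-fold higher in roots. LACS2 and CYP86A4 were also higher in roots, by 1.28 ± 0.12 and 0.82 ± 0.18.

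**Figure D4:**
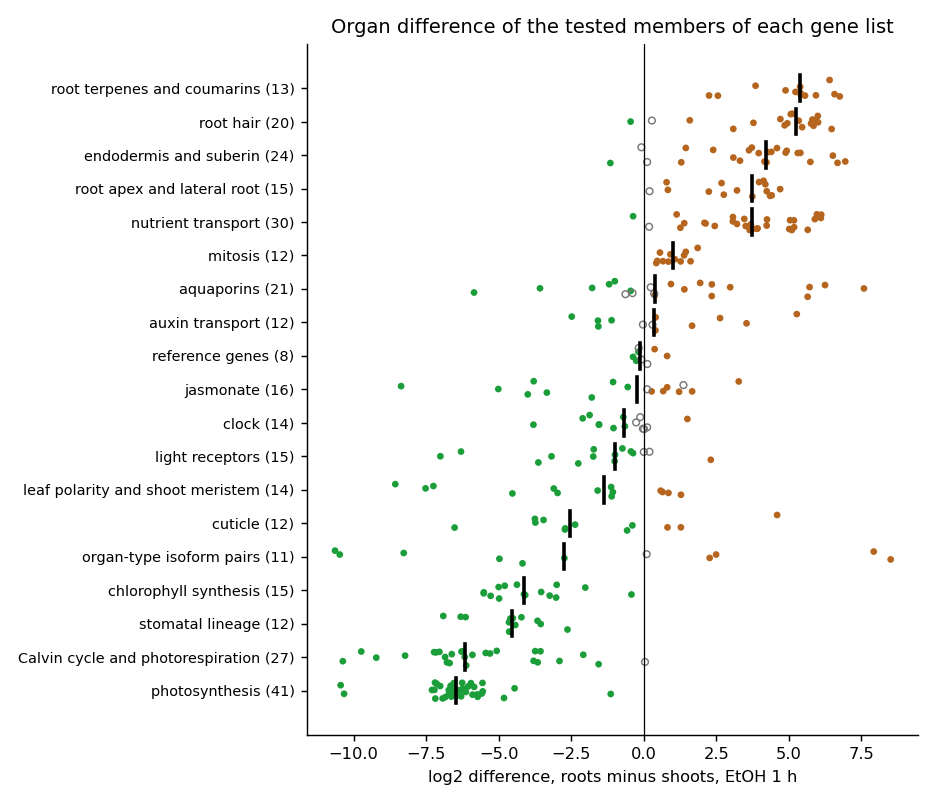
Log2 difference, roots minus shoots, of each tested member of 19 gene lists at EtOH 1 h (one point a gene, number tested in brackets, vertical spread only to separate points). Brown points were called higher in roots, green points higher in shoots, open points did not pass, and black bars are list medians, from -6.46 for photosynthesis to 5.40 for root terpenes and coumarins.

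Root hair genes stood on the other side. Of 22 genes 20 were tested, 18 were higher in roots, 1 was higher in shoots and 1 did not pass, with a median of 5.23. The bHLH factors that start hairs were among them: RHD6 (AT1G66470) read 81.7, 104 and 89.1 in roots and 1.68, 1.06 and 0.687 in shoots, and RSL4 differed by 5.34 ± 0.36. EXPA18 (AT1G62980), an expansin that loosens the hair wall, read 169, 197 and 172 in roots and 1.68, 0.531 and 1.03 in shoots, 6.47 ± 0.23 (adjusted p = 1.4e-07). EXPA7, PRP3 and COBL9, of wall loosening, wall protein and cellulose orientation, differed by 6.00 ± 0.25, 6.00 ± 0.48 and 5.81 ± 0.41. Patterning genes were less one-sided. GL2, which acts in root hairless cells and also in leaf hairs, was higher in shoots (67.2, 78.5 and 73.1 in roots, 87.3, 103 and 112 in shoots, -0.46 ± 0.13), a call lost in the all-library fit (adjusted p = 0.24). Its regulators WER and CPC were higher in roots, by 3.78 ± 0.23 and 1.58 ± 0.32.

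The promoters of some hair genes share a known element, shown here because the genes also moved together. Bases before the annotated start of each gene were read from the TAIR10.1 assembly, which was used with its own annotation because the deposited table carries no coordinates. The root hair element, a degenerate motif to which RSL-type bHLH factors are known to bind, was searched on both strands in the 250 bases before the start. It was present in 5 of 22 root hair promoters (22.7%), in 0.775% of 19088 promoters of tested genes, in 1.53% of genes at least 2-fold higher in roots and in 0.476% of those at least 2-fold higher in shoots. The 60 bases around each match follow, 5′ to 3′ on the gene's strand, with the matched letters in capitals.
PRP1, chr1:20504750-20504809, plus strand: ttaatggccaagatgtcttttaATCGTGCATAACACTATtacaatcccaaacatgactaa
PRP3, chr3:23182533-23182592, plus strand: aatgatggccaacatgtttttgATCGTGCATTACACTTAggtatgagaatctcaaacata
EXPA7, chr1:4276405-4276464, plus strand: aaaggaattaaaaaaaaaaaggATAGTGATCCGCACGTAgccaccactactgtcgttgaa
EXPA18, chr1:23331501-23331560, plus strand: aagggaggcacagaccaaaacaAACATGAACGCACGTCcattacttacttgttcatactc
LRX1, chr1:4069877-4069936, plus strand: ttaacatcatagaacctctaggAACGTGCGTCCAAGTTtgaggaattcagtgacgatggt
The match lies 151 to 167 bases before the start in PRP3 and 25 to 40 in EXPA18. It reads on the gene's strand in EXPA7 and EXPA18 and on the other strand in PRP1, PRP3 and LRX1. All 5 genes were called higher in roots, PRP1 by 5.12 ± 0.29 and LRX1 by 5.76 ± 0.34. A match is a run of letters and not a proven site, and 13 of the 18 hair genes higher in roots had none in this window. Whether the element was first defined on promoters of these same genes was not checked, so the shares are a description and not a test.

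Endodermis and suberin genes were higher in roots in 21 of 24 cases, with a median of 4.19. MYB36 (AT5G57620), which switches on Casparian strip genes, read 218, 228 and 232 in roots and 4.48, 5.31 and 4.47 in shoots, 5.30 ± 0.14 (adjusted p = 4.1e-08). The scaffold protein CASP1 differed by 6.94 ± 0.20, and CASP5 was at the lowest value in all shoots and at least 44.8-fold higher in roots. The strip peroxidase PER64 differed by 6.67 ± 0.29. Of suberin enzymes, CYP86A1 (AT5G58860) read 1192, 1144 and 1172 in roots and 63.3, 53.1 and 62.5 in shoots, 4.27 ± 0.09, and GPAT5 and ASFT differed by 4.59 ± 0.22 and 4.23 ± 0.20. SHR, whose protein moves into the endodermis, was higher in roots by 1.45 ± 0.10, while its partner SCR overlapped between organs (0.11 ± 0.15, adjusted p = 0.51), at 185, 248 and 282 in roots and 212, 220 and 221 in shoots. KCS20, an elongase that serves both suberin and wax, was higher in shoots (-1.15 ± 0.12).

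Genes of the root apex and of lateral roots were higher in roots in 14 of 15 tested, with a median of 3.74. PLT1 (AT3G20840), a master regulator of the root stem cell niche, read 46.4, 56.7 and 56.2 in roots and 0.560, 0.531 and 2.75 in shoots. SMB and BRN2, of the root cap, differed by 4.35 ± 0.30 and by at least 17.5-fold, and WOX5 of the quiescent centre by 2.68 ± 0.29. LBD29, of lateral root initiation, was at the lowest value in shoots and at least 18.9-fold higher in roots. The auxin response factor ARF7, which acts upstream of it, did not pass (0.20 ± 0.09, adjusted p = 0.089). All 12 mitotic genes were higher in roots, though by little: the median was 0.99, from 0.43 ± 0.15 in CDKB2;2 to 1.86 ± 0.17 in CYCB1;3. CDKB2;2 fell short of the threshold without root or shoot replicate 1 or 2, with adjusted p of 0.072 to 0.11, and in the all-library fit (adjusted p = 0.31).

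Genes of ion uptake were mostly higher in roots. Of 30 nutrient transport genes tested, 28 were higher in roots, 1 was higher in shoots and 1 did not pass, with a median of 3.72, and their sum took 0.750% to 0.882% of root totals and 0.147% to 0.163% of shoot totals. PHT1;1 (AT5G43350), a phosphate importer, read 4628, 5085 and 4716 in roots and 69.4, 56.9 and 81.1 in shoots, 6.11 ± 0.12 (adjusted p = 1.9e-08). The sulfate importer SULTR1;2 (AT1G78000) read 5995, 6238 and 7343 in roots and 188, 121 and 252 in shoots. Of iron genes in this list, IRT1, the importer, differed by 6.10 ± 0.29, the reductase FRO2 by 5.04 ± 0.43 and the regulator FRU by 5.65 ± 0.18. FRO7, which is outside the list, went the other way. It was at the lowest value in all root libraries and read 138, 149 and 134 in shoots, at least 123-fold higher. FRO2 and IRT1 ranged about 2-fold among roots, with replicate 3 lowest for both (85.5 and 163) and replicate 1 highest (182 and 350), while FRU was highest in replicate 3 (537). For nitrogen, NRT1.5, which loads nitrate into the xylem, differed by 5.96 ± 0.44 and the high-affinity importer NRT2.1 by 5.18 ± 0.40. NRT2.1 (AT1G08090) read 53.0, 106 and 124 in roots and at most 2.24 in shoots. AMT2, an ammonium transporter, was the gene higher in shoots (-0.37 ± 0.09), which did not pass in the all-library fit (adjusted p = 0.41). Of the proton pumps that drive uptake, AHA2 was higher in roots (2.13 ± 0.16) and AHA1 was near parity (0.18 ± 0.11, adjusted p = 0.17).

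Of 21 aquaporins, the channels for water, 11 were higher in roots (52.4%), 6 in shoots (28.6%) and 4 did not pass. Of all tested genes 34.0% were higher in roots and 38.1% in shoots, so having members on both sides is not read as a trait of the family. PIP2;4 of the plasma membrane read 967, 700 and 485 in roots and 11.8, 4.25 and 10.3 in shoots, 6.24 ± 0.37, and PIP2;6 went the other way, at 71.1, 47.5 and 31.7 in roots and 2613, 3156 and 2658 in shoots, -5.85 ± 0.25. In the vacuole membrane TIP2;3 differed by 7.58 ± 0.30 and its relative TIP2;1 by -3.58 ± 0.11. Summed, the family took 0.632% to 0.784% of root totals and 0.609% to 0.667% of shoot totals, so the members differed far more than the sum.

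In a list of families with root and shoot forms, 4 of 11 genes were higher in roots (36.4%), 6 in shoots (54.5%) and 1 did not pass. The list was drawn up from such forms, so its division says nothing about gene families at large. Ferredoxins carry electrons from photosystem I in leaves and toward nitrite and sulfite reduction in roots. FD2 was higher in shoots (-4.18 ± 0.10) and FD3 in roots (2.49 ± 0.14). Of the reductases that pair with them, LFNR2 differed by -8.27 ± 0.23 and LFNR1 by -4.98 ± 0.13, and RFNR2 by 2.27 ± 0.16. RFNR1 did not differ detectably (0.10 ± 0.23, adjusted p = 0.71): its shoots spread from 214 to 418, around the 308 to 373 of the roots. The myrosinases were the extreme case, TGG1 and TGG2 at -10.64 and -10.48 and TGG4 and TGG5 at 7.92 and 8.51.

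A list of genes for root terpenes and coumarins, which are specialised metabolites, was one-sided. The list was drawn up for roots, so its direction says nothing about terpene or coumarin genes at large. Of its 14 genes 13 were tested and all 13 were higher in roots, with a median of 5.40. The neighbouring thalianol genes THAS1, THAH and THAD, which make a triterpene, differed by 5.55 ± 0.30, 5.40 ± 0.36 and 6.57 ± 0.23. THAD (AT5G47990) read 1031, 1023 and 1327 in roots and 15.1, 7.44 and 11.0 in shoots. F6'H1, which opens the path to iron-mobilising coumarins, and their exporter ABCG37 differed by 5.41 ± 0.32 and 5.39 ± 0.12. CYP82C4, which acts at the end of that path, spread about 3-fold among the roots, at 101, 59.1 and 33.3, all far above the at most 0.687 of the shoots.

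Hormone genes took both sides, as did all tested genes, of which 34.0% were higher in roots and 38.1% in shoots. Of 16 jasmonate genes, 6 were higher in roots (37.5%), 8 in shoots (50%) and 2 did not pass. Splits this near to those of all genes are not read as a trait of the lists. LOX2 (AT3G45140), the chloroplast lipoxygenase of leaves, read 2.75, 1.37 and 0.401 in roots and 809, 751 and 730 in shoots, -8.36 ± 0.32 (adjusted p = 2.0e-07). Within 1 enzyme family, AOC2 differed by -3.80 ± 0.17 and AOC4 by 1.21 ± 0.09. VSP1, a storage protein that jasmonate induces, was higher in roots (467, 407 and 450 against 47.0, 29.2 and 64.9). Shoot replicate 3 was low for LOX3, at 66.0 against 201 and 228 in the other shoots. Of 12 auxin transport genes, 6 were higher in roots (50%), 4 in shoots (33.3%) and 2 did not pass. PIN2 (AT5G57090), which carries auxin through the root epidermis, read 711, 735 and 858 in roots and at most 46.7 in shoots, 5.27 ± 0.48. The importer LAX3 and the exporter ABCB4 were also higher in roots, by 2.63 ± 0.14 and 3.54 ± 0.14, while PIN4, PIN7 and PIN3 were higher in shoots, at -2.48 ± 0.14, -1.58 ± 0.12 and -1.57 ± 0.12.

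Of 15 light signalling genes, 12 were higher in shoots (80%), against 38.1% of all tested genes. PIF4 and PIF5, bHLH factors that phytochromes degrade, differed by -7.01 ± 0.13 and -6.30 ± 0.14, and PIF4 (AT2G43010) read 11.4, 8.19 and 9.23 in roots and 1246, 1354 and 1480 in shoots. The blue light receptors PHOT1 and PHOT2, which steer growth and chloroplasts, differed by -3.18 ± 0.10 and -2.26 ± 0.13. Phytochrome B itself did not pass (PHYB, 0.19 ± 0.12, adjusted p = 0.18). HY5 (AT5G11260), which promotes light responses, was the gene higher in roots, at 143, 112 and 133 against 25.8, 26.0 and 24.0, 2.31 ± 0.14 (adjusted p = 1.8e-06). Of 14 clock genes, 8 were higher in shoots (57.1%) and 1 in roots (7.14%), against 38.1% and 34.0% of all tested genes. The other 5 did not pass. LNK2 differed most, -3.80 ± 0.14, and the evening gene ELF4 was the one higher in roots, at 380, 315 and 316 against 130, 86.1 and 147. Each organ was sampled here at a single clock time, so a shifted phase and a different mean level cannot be told apart in these 6 libraries.

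Of 8 reference genes chosen for steady levels, 2 were higher in roots, 3 were higher in shoots and 3 did not pass. The called share was 62.5%, against 72.2% of all tested genes. Their differences mostly lay near parity, between -0.37 and 0.80. UBQ10 (AT4G05320) was the farthest, at 19015, 15225 and 14107 in roots and 9603, 9153 and 8768 in shoots (0.80 ± 0.17, adjusted p = 0.0031). PP2AA3, a phosphatase subunit often used to scale qPCR, differed by -0.18 ± 0.08 (adjusted p = 0.076).

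Motifs of light-responsive promoters were also read, since the 41 photosynthesis genes moved together. The G-box (CACGTG) and the I-box (GATAAG) were searched on both strands in the 250 bases before the start; adjacent copies of the pair can share a base. The G-box was present in 7.26% of promoters of all tested genes and in 8.09% of those at least 2-fold higher in shoots. For the I-box these shares were 12.4% and 15.4%. Of 27 promoters of carbon fixation and photorespiration genes, 4 held the G-box (14.8%) and 4 the I-box (14.8%). Of 41 photosynthesis promoters, 9 held the G-box (22.0%) and 11 the I-box (26.8%). Both were present in 3, LHCB6, PSBQ2 and PSAH2, given here from TAIR10.1, 5′ to 3′ on the gene's strand, with both motifs in capitals.
LHCB6, chr1:5447881-5448130, minus strand: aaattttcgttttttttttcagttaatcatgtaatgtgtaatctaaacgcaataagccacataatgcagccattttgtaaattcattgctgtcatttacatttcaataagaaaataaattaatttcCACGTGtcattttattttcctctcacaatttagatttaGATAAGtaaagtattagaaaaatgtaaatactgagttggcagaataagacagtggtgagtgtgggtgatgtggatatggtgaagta
PSBQ2, chr4:2673244-2673493, minus strand: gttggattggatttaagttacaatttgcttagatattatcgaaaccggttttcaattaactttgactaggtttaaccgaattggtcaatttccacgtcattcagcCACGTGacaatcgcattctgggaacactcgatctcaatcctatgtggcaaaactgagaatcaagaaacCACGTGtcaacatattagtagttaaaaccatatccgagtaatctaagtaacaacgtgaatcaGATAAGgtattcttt
PSAH2, chr1:19454548-19454797, plus strand: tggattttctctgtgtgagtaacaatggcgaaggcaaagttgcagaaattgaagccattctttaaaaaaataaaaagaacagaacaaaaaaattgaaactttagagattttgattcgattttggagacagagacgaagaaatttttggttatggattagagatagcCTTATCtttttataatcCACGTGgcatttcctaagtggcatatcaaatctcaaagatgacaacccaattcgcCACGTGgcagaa
PSBQ2 and PSAH2 hold the G-box in a pair of copies. These genes differed by -5.73 ± 0.12 (LHCB6), -6.72 ± 0.12 (PSBQ2) and -6.84 ± 0.21 (PSAH2), inside the range of the 41. Site II (TGGGCC), an element of ribosomal and cell cycle promoters, was present in 6.21% of promoters of genes at least 2-fold higher in roots, in 14.6% of those at least 2-fold higher in shoots and in 16.4% of all.

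Some genes were listed at the lowest value in all libraries of an organ while the other organ had a mean of at least 50. Shoots had 93 such genes and roots 10. At least 50 in each library of the higher organ was met by 71 of the 93 and 5 of the 10. Without shoot replicate 1, 2 or 3 the shoot mean of 2, 7 and 8 of the 93 fell under 50, and CRU3, OLEO1 and BGLU19 were at the lowest value in shoot replicates 1 and 2. All libraries of the series over 0.5 M reads were then compared, 30 of shoots and 31 of roots. Of the 93 genes, 77 were higher in every shoot library than in every root library. Of the 10 genes, 4 were separated the other way. The compared libraries include those on which the genes were chosen, so these counts are not an independent check. The share of all genes separated in this way was not worked out, so the counts also lack a background. The 4 root genes with a symbol were sks15, CASP5, CSLB01 and XTH12.

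The 10 other root and shoot pairs of the series share no library with this one. Of the 13835 genes called here, 11911 were called in the same direction in the t-chalcone pair at 1 h (88.1% of those tested there, where 70.7% of all genes were called) and 10707 in the EtOH pair at 6 h (78.8%, where 67.8% were called). Opposite calls numbered 21 and 233. In the t-chalcone pairs at 3, 6, 12 and 24 h the calls in the same direction numbered 9981, 10736, 8966 and 8104, where 66.6%, 76.6%, 60.6% and 49.9% of all genes were called, and in the EtOH pairs at 0, 3 and 24 h 8660, 8359 and 7853, where 55.0%, 47.8% and 51.9% were called. Opposite calls numbered 424, 644, 532 and 270 in these t-chalcone pairs and 333, 76 and 578 in these EtOH pairs. The lowest count, 4040 in the EtOH pair at 12 h, where 23.4% of all genes were called, included a library under 0.5 M reads, and opposite calls there numbered 83. Without that library the count was 9695 (75.3% of those tested there, where 72.4% of all genes were called), with 686 opposite calls. The EtOH pairs at 0, 3 and 24 h and the t-chalcone pair at 24 h also held a library under 0.5 M reads each. Without those libraries the counts were 9192, 9589, 8286 and 8519, where 71.3%, 64.9%, 60.8% and 58.2% of all genes were called. Opposite calls then numbered 684, 200, 744 and 349. All 30 genes with the largest differences named above were called in the same direction in all 10 pairs. So were 40 of the 41 photosynthesis genes, 25 of 26 genes of carbon fixation and photorespiration, 14 of 19 root hair genes and 16 of 22 endodermis and suberin genes that were called here. Clock genes repeated in all 10 in 1 of 9 cases and mitotic genes in 0 of 12. The share of all called genes that repeated in all 10 was not worked out, so these list counts lack a background. The EtOH pair at 12 h, shallow library included, limits them. There, 29.6% of the genes called here and tested in that pair were called in the same direction.

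The organ difference itself was then tested between 1 h and 6 h of EtOH, with 6 libraries at each time. It changed in 4056 of 19695 genes (20.6%), toward roots at 1 h in 2633 (13.4%) and toward shoots at 1 h in 1423 (7.23%). In 1014 of the 4056 the sign of the mean difference changed, whether or not the organs differed detectably at either time. Genes called at 1 h and called the opposite way at 6 h numbered 233. In the all-library fit, shallow libraries included, the count of genes with a changed organ difference was 461. Photosynthesis genes shifted together, with 31 of 41 toward roots at 1 h and 1 toward shoots, a median change of 1.09. The shoot level of these genes was higher at 6 h by a median of 0.43 and the root level lower by 0.66, so the organs drew farther apart at 6 h. In the all-library fit 5 of the 41 passed, all 5 toward roots at 1 h. LHCB1.1 was the gene that went the other way, at -1.05. Endodermis and suberin genes shifted toward roots at 1 h in 10 of 24 cases, nutrient transport in 12 of 30, chlorophyll synthesis in 9 of 15 and clock genes in 7 of 14, and none of these 4 lists held a gene called toward shoots. In the all-library fit these counts were 0, 6, 1 and 3. The endodermis and suberin count was 6 without shoot replicate 2, root replicate 2 or root replicate 3 at 1 h, or without replicate 3 of either organ at 6 h.

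**Figure D5:**
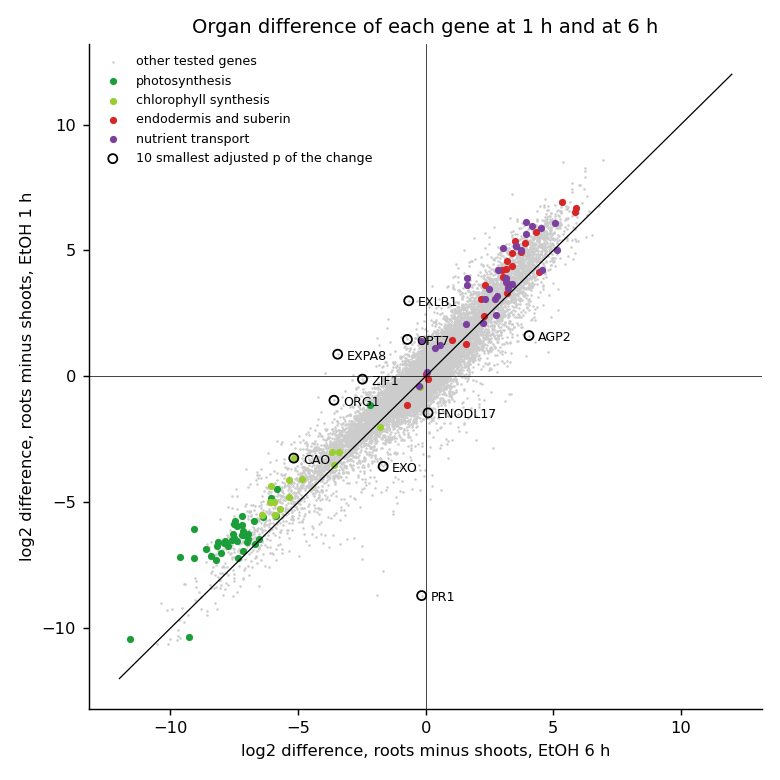
Log2 difference, roots minus shoots, of each gene tested at both times at EtOH 6 h (x axis) and 1 h (y axis), 3 libraries per organ and time, with 4 lists in colour and the 10 genes of smallest adjusted p for the change in rings; the line marks equal differences. Most photosynthesis genes (median change 1.09) lie above the line, and PR1 (-8.70 at 1 h, -0.16 at 6 h) lies far below it.

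The 10 genes with a symbol and the smallest adjusted p for this change were ZIF1, EXPA8, ORG1, CAO, PR1, EXLB1, OPT7, EXO, ENODL17 and AGP2. EXPA8 (AT2G40610), a wall-loosening expansin, read 71.5, 67.3 and 50.2 in roots and 34.2, 34.0 and 32.0 in shoots at 1 h. At 6 h its roots read 38.6, 47.6 and 45.6 and its shoots 391, 517 and 570, so the higher organ turned from roots to shoots and the change was 4.33 ± 0.24 (adjusted p = 1.9e-06). EXLB1 and OPT7 turned the same way, with changes of 3.66 ± 0.27 and 2.18 ± 0.16. ZIF1, a zinc-related transporter, was near parity at 1 h (-0.11) and higher in shoots at 6 h (-2.47). CAO, which makes chlorophyll b, had its shoots rise from 484, 567 and 535 to 1219, 1221 and 1270, a change of 1.92 ± 0.13. AGP2, an arabinogalactan protein, went against these, with shoots of 200, 289 and 198 at 1 h and 36.5, 44.0 and 43.4 at 6 h (-2.43 ± 0.19). EXO and ENODL17 also had shoots that were higher at 1 h, with changes of -1.91 ± 0.15 and -1.55 ± 0.12, of which ENODL17 did not pass in the all-library fit (adjusted p = 0.29).

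PR1 (AT2G14610), the marker of salicylic acid defence, had the largest change of the 10, -8.55 ± 0.61 (adjusted p = 1.5e-05). With edgeR on the recovered reads its adjusted p was 0.052. At 1 h it read 511, 1044 and 354 in shoots and was at the lowest value in roots, at least 560-fold higher, and at 6 h the shoots read 0.393, 2.67 and 1.47. BGL2, a pathogenesis-related glucanase, followed it at 573, 738 and 422 in shoots at 1 h and 7.85, 16.0 and 2.21 at 6 h. Both varied within other shoot groups, PR1 from 1.78 to 211 in t-chalcone shoots at 12 h and from 45.2 to 376 at 1 h, so the 3 libraries of a group can differ by far more than these 3 did.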

How the data were processed

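The authors deposited one table of 22884 genes and 72 columns. The unit is a signal: reads per gene, scaled by the authors with size factors from DESeq2 1.14.1. The genome build was TAIR10, and both come from the submitters' processing notes. Aligner, counter and use of strand are not given in the sources used, so reads of overlapping antisense genes cannot be told apart. No value was 0. In all 6 libraries 100% of values were whole multiples of the lowest one of their column, within 0.01, and these whole numbers served as recovered reads. Between 2 and 99, each shoot library at 1 h lacked 8 to 13 whole numbers and each root library lacked 0, so recovered reads may differ from true counts by a factor in each library. The 6 untreated columns at 0 h matched the 6 EtOH columns of that time in every gene and were counted once, which left 66 libraries.

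Genes reaching 10 in 3 or more libraries of a comparison were tested with limma 3.58.1 (R 4.3.3), with a mean-variance trend, on log2(value + 1). This scale understates differences of low genes. P-values are two-sided, with Benjamini-Hochberg adjustment. The change between 1 h and 6 h was an interaction term over 12 libraries. Alternatives were pseudocounts of 0.5 and 10, no filter, other scalings, a fit of all 66 libraries, edgeR 4.0.16 and DESeq2 1.42.0 on recovered reads, and each library left out. Added after seeing the data were, for the other organ pairs, a pseudocount of 10 and the omission of libraries under 0.5 M (mega) reads. The procedure was also run on simulated data with few changed genes. Most genes differ between these organs, so that run does not vouch for this comparison.

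Named genes were the 15 largest differences per direction among genes with a symbol, an adjusted p under 0.05, an average of 50 or more in the higher organ and no overlap, then members of 19 lists (345 of 352 genes were in the table), then the 10 smallest adjusted p for the change between times. The seed-storage genes and BGL2 were chosen after their values were seen. The groups, members and lists were chosen with earlier results of these data known. Replicates carry no numbers in the labels and were numbered in accession order. Names came from the TAIR10.1 reference, which held 22708 of the identifiers and a symbol for 9607. Counting error alone is covered by the bounds set against 3 counts per library.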

Additional observations from a re-analysis of the deposited data

Results flagged for a closer look

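The organ difference at EtOH 1 h was compared with that at EtOH 6 h by an interaction term in limma, and 4056 genes differed. These are time points of one control series, and the change can come from either organ. Of the 10 named genes, ZIF1 changed by 2.36, EXPA8 by 4.33, ORG1 by 2.64, CAO by 1.92, EXLB1 by 3.66 and OPT7 by 2.18 toward roots at 1 h, on the log2(value + 1) scale. PR1 changed by -8.55, EXO by -1.91, ENODL17 by -1.55 and AGP2 by -2.43, toward shoots at 1 h.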

How the results depend on the processing

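The count of genes that differed between organs was 9564 to 15214 over 14 alternatives, against 13835, and the count at 2-fold was 7032 to 8895, against 7717. With shoot or root libraries left out in turn the counts were 12506 to 13443 and 7655 to 7829. The organ with more calls depended on scaling: 6524 toward roots and 7311 toward shoots became 7093 and 6724 with edgeR, and scaling moved the median of all genes by less than 0.1. The change between 1 h and 6 h was called in 2803 to 4679 genes under other alternatives but in 461 in the fit of all 66 libraries, of which 457 were among the 4056; the cause was not tested. In the EtOH pair at 12 h the shared calls were 9695 without the library under 0.5 M reads. For the organ difference at 1 h, counts of called genes per list and direction moved by more than 1.5 times in 14 cases and by less in 518, and the 14 were all counts of 4 or fewer genes.

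Values near 0 changed sign: with libraries left out in turn AT1G80380 ranged from -0.062 to 0.19 (negative without root replicate 1 or 2 or shoot replicate 2), SCR from -0.018 to 0.28 (negative without root replicate 3) and RFNR1 from -0.18 to 0.30 (negative without shoot replicate 3). SCR passed without root replicate 1 (0.28, adjusted p = 0.028), PHYB without shoot replicate 2 (0.32, adjusted p = 0.019), PP2AA3 without shoot replicate 2 (-0.24, adjusted p = 0.027), ARF7 under both other scalings, with edgeR and without root replicate 3, and AHA1 with edgeR and DESeq2. No paired analysis was possible because the labels give the samples no replicate numbers.

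Low genes set the limit of depth: a gene at the lowest value in an organ was not detectable at this depth and is not shown to be absent. The lowest value itself differs between libraries.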

Other observations

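Some neighbouring genes differed toward the same organ. Annotated genes of the table, tested or not, were read in the order of TAIR10.1, and an untested gene ended a run. In 60 runs, at least 3 consecutive genes were called with log2 3 or more in the same direction. Of these runs 39 were toward roots and 21 toward shoots, the longest with 6 genes. They held 203 of the 2883 genes called with log2 3 or more on chromosomes 1 to 5. The number of runs in a random gene order was not worked out. The runs included the thalianol genes THAD, THAH and THAS1 with AT5G47980 (5.40 to 6.57 toward roots), the marneral genes CYP71A16 and MRN1 with CYP705A12 (up to 6.75 toward roots), and the Rubisco genes RBCS1B, RBCS2B and RBCS3B (8.23 to 10.4 toward shoots). They also included the receptor-like kinases CRK12 to CRK16 (3.05 to 6.45 toward shoots), the cytochrome P450 genes CYP71B16 to CYP71B22 (4.55 to 6.65 toward shoots) and the flavonol synthase genes FLS3 to FLS5 (up to 5.90 toward roots). Copies in such runs may share reads, and their part in these values was not tested.

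The other genes that shoot replicate 3 held above both other shoot libraries were BGLU19 (214), ICL, the isocitrate lyase of oil breakdown (137), PER1, a seed peroxiredoxin (94.1), HSD1 (82.8), TIP3;1, a seed vacuole aquaporin (69.4), and AT2G05580, AT3G01570 and AT2G28490, at 98.3, 88.3 and 87.6. Of these only ICL was tested, and it did not differ between organs (adjusted p = 0.46).

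Of 78 genes of the mitochondrial genome in the table, 1 passed the filter, and together they took 0.00178% to 0.00256% of each library's total.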
